A study of Mus musculus with 2 samples.

Results

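Brown adipose tissue was compared between 2 poly(A) RNA libraries for the genes that carry the insulin signal from its receptor to the kinase AKT and the transcription factor FOXO1. The set was chosen with earlier results of these data known. It was chosen by name, as the table entries for Insr, Irs1, Irs2, Pik3r1, Pik3ca, Akt1, Akt2 and Foxo1. Of these 8 genes 7 were measured, over 10 transcript rows, among 10761 genes and 14189 transcript rows in all, and Irs2 was not analysed here. Both libraries came from male C57BL6/J mice of 8 to 12 weeks kept for 10 days on a high-fat diet (60% of kcal from fat). One group had no SML (HFD control, 1 library) and the other was injected intraperitoneally with SML at 5 mg per kg body weight (SML, 1 library). SML is the abbreviation of the labels, and the title of the series speaks of sesaminol, a lignan from sesame. The sources used here do not say how many animals a library holds. With 1 library per group there was no replicate check and no test, so every difference compares 2 libraries and not 2 conditions.

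Insulin binds a receptor tyrosine kinase (Insr), which phosphorylates adaptor proteins such as IRS1. These recruit phosphoinositide 3-kinase (PI3K), built from a regulatory subunit (Pik3r1) and a catalytic subunit (Pik3ca), whose lipid product brings AKT to the membrane. Active AKT promotes glucose uptake and lipid synthesis in fat cells and keeps FOXO1 out of the nucleus, while FOXO1 in the nucleus activates genes of the fasted state, among them genes for insulin signalling proteins.

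Upstream sequences were held for 6 of the 7 measured genes, at 11 annotated start sites (RefSeq, GRCm38.p6). The 250 bases before the start are shown for both starts of Pik3r1, the gene with the largest difference, for the Akt1 start that held a FOXO motif, and for Foxo1 itself. Capitals mark the FOXO motif GTAAACA or its core AAACA on either strand (TGTTTAC and TGTTT on the other), and each GTAAACA contains the core.
Pik3r1, far start, chr13:101768218-101768467, minus strand: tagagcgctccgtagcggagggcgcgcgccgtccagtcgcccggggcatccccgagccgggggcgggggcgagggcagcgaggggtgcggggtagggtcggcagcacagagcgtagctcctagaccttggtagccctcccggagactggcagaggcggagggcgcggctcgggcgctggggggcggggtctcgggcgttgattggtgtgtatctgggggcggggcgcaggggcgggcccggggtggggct
Pik3r1, near start, chr13:101692631-101692880, minus strand: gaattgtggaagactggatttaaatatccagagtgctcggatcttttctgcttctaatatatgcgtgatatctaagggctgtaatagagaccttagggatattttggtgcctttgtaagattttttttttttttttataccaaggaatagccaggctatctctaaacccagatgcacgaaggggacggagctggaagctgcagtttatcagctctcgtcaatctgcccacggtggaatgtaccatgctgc
Akt1, far start, chr12:112674885-112675134, minus strand: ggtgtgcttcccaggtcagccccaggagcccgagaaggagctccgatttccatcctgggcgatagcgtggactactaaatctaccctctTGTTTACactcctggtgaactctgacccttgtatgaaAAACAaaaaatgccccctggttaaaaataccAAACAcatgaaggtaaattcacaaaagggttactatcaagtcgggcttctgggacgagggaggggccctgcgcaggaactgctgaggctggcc
Foxo1, chr3:52268087-52268336, plus strand: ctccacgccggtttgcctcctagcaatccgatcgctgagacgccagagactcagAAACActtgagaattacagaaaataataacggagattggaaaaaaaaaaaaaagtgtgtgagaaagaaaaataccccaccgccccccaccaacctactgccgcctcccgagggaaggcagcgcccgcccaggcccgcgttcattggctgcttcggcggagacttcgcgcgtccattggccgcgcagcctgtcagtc
GTAAACA was found at 1 of the 11 start sites, the far start of Akt1, where it begins 161 bases before the start. It was present in 3.17% of all 32851 upstream windows of the same length. The core AAACA was found at 7 of the 11 sites and in 46.4% of all windows. The 7 sites are not 7 genes, as Akt2 gave several of them. The Akt2 window at 27607086 to 27607335 held 7 overlapping matches in a repeat. The Pik3ca site with a core ends at 32397064, upstream of the locus as measured here, which starts at 32436151. The far Akt1 window, from 112674885, also lies upstream of the locus as measured here, which on the minus strand begins at 112674276. The near Akt1 window, 112674277 to 112674526, borders that locus and held 0 FOXO motifs and 0 cores. The Pik3r1 windows held neither GTAAACA nor AAACA. They differed in base composition, with a GC content of 76.4% at the far start and 42.4% at the near one. A match is a description of these letters and not a binding site.

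In the SML library 2 of the 7 genes, Pik3r1 and Insr, were higher by the size rule and 0 were lower. The rule asks for a 1.5-fold difference in FPKM + 1 among genes with a mean of at least 1 FPKM (fragments counted per kilobase of transcript and adjusted for depth). Over all 9870 genes kept, 5.45% were higher and 5.74% were lower by that rule. All 7 genes passed the filter, 6 of the 7 had a difference above 0, and the median difference was 0.35 on the log2(FPKM + 1) scale against 0 over all genes kept. The 2 ends of the set were Pik3r1 at 0.91 and Akt2 at -0.34. The count of 2 became 1 with the trend on GC content and transcript length removed, when only Pik3r1 was past the rule, with 3.59% of genes higher and 5.28% lower. By a 2-fold rule 0 of the 7 were higher or lower, beside 0.669% and 1.97% of all genes kept.

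The order of abundance was nearly the same in both libraries, as the plot of FPKM by gene shows. Akt2 was the most abundant of the 7 and Akt1 came next, followed by Foxo1 and Pik3r1, then Insr, Pik3ca and Irs1. In HFD control Foxo1 stood at 6.32 FPKM (95% counting interval 5.75 to 6.93) and Pik3r1 at 6.14 (5.60 to 6.72), which could not be told apart. In SML Pik3r1 at 12.4 FPKM (11.6 to 13.4) was above Foxo1 at 8.65 (7.87 to 9.48). Pik3ca and Irs1, the 2 lowest, had overlapping intervals in each library. These intervals come from estimated fragments and cover counting error only, not the spread between animals or PCR duplicates.

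**Figure D1:**
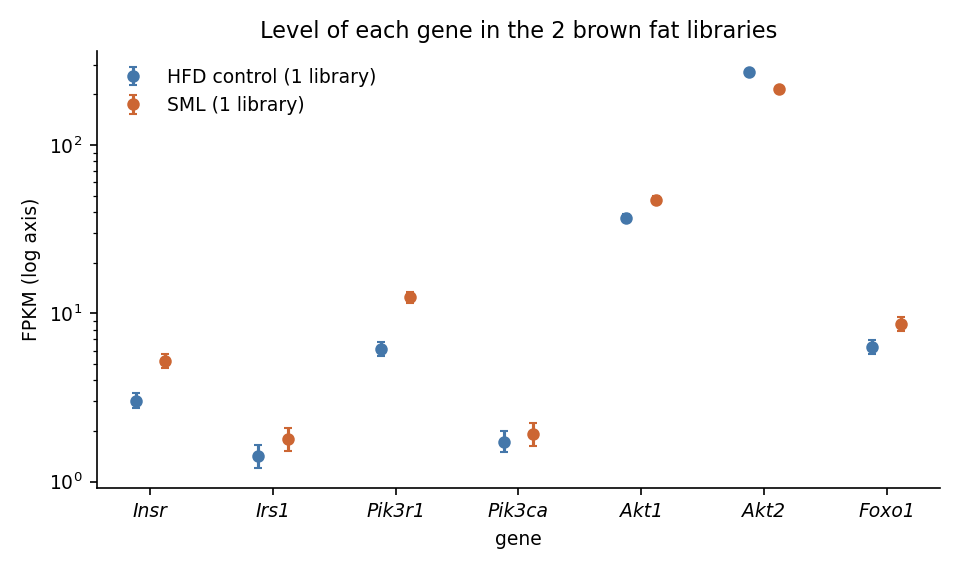
FPKM on a log axis for each gene in the HFD control library (blue) and the SML library (orange), 1 library each; bars are 95% intervals for counting error. Akt2 is highest in both libraries, at 271 and 214 FPKM, and the 2 points of Pik3r1 and Insr stand farthest apart.

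Insr, the receptor (chromosome 8, 3150922 to 3279617, mm10, minus strand), had 3.03 FPKM in HFD control and 5.22 FPKM in SML. That was a ratio of scaled counts of 1.72 (1.5 to 1.98) from 368 and 467 estimated fragments, and 4.50% of genes kept had a larger difference. The log2 difference of 0.63 became 0.53 with the GC and length trend removed, below the size rule. Irs1, the adaptor that the receptor phosphorylates (chromosome 1, 82233105 to 82291439, minus strand), had 1.41 and 1.78 FPKM, the lowest levels of the 7. Its ratio of 1.26 (1.01 to 1.58) rested on 168 and 156 fragments. The interval only just left out 1, and the difference was under the size rule. Insr was thus 2.15 times as abundant as Irs1 in HFD control and 2.93 times in SML. The more abundant adaptor gene was Irs3, an adaptor of rodent fat cells, with 26.6 FPKM in HFD control and 18.7 in SML, 18.9 and 10.5 times the level of Irs1. Its ratio of 0.701 (0.619 to 0.792) was on the other side of 1.

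Pik3r1, the regulatory subunit gene whose products bind phosphorylated IRS proteins and hold the catalytic subunit (chromosome 13, 101680761 to 101768217, minus strand), showed the largest difference of the set. Summed over its 2 transcript rows it had 6.14 FPKM in HFD control and 12.4 FPKM in SML, a ratio of 2.12 (1.89 to 2.39) from 466 and 728 fragments. Only 0.993% of genes kept had a larger difference. The main row had 5.65 and 12.4 FPKM with a ratio of 2.20 (1.95 to 2.50). The second row had 0.49 FPKM in HFD control and was listed at 0 in SML, although its scaled count there was 37.3 against 27.6 in HFD control. By scaled counts this row made up 9.31% of the gene in HFD control (exact binomial interval 6.77 to 12.3%) and 5.91% in SML (4.31 to 7.87%), intervals that overlap. With the listed 0 filled in from the count column, an alternative added after seeing the data, the difference of the gene was 0.98 in place of 0.91. The ratio of scaled count to FPKM implied lengths of 6.35 kb for the main row and 7.52 kb for the second, and the sources used here do not say which of the start sites shown above each row uses.

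Pik3ca, the catalytic subunit that makes the lipid messenger (chromosome 3, 32436151 to 32468486, plus strand), had 1.73 FPKM in HFD control and 1.91 FPKM in SML. Its ratio of 1.11 (0.895 to 1.37) from 200 and 163 fragments included 1, so no difference was detectable at this depth, and its log2 difference of 0.09 became -0.19 after removal of the trend on GC and length. Pik3r1 stood at 3.55 times the FPKM of Pik3ca in HFD control and 6.52 times in SML. Among the regulatory subunit genes Pik3r1 held 35.6% of the FPKM in HFD control and 51.7% in SML, while Pik3r2 had 10.1 and 10.4 FPKM and Pik3r3 had 1.00 and 1.21. Among the class IA catalytic genes analysed here Pik3cb had 2.45 and 2.02 FPKM, with a ratio of 0.822 (0.628 to 1.07). Pik3r1 was the only one of these 5 subunit genes past the size rule.

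**Figure D2:**
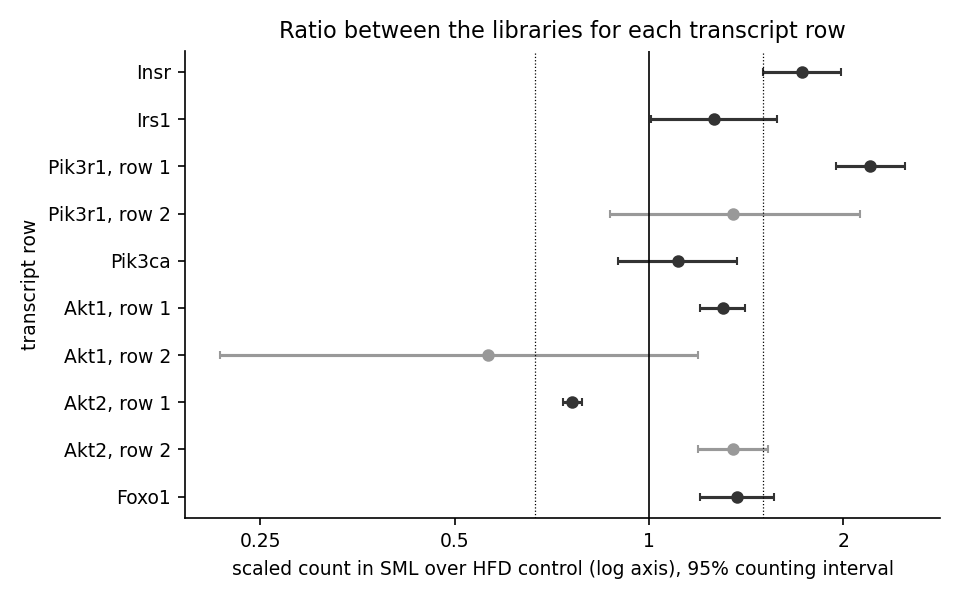
Ratio of the scaled count in SML over HFD control on a log axis for each of the 10 transcript rows, with 95% counting intervals; row 1 (black) is the more abundant row of a gene and row 2 (grey) the other, and dotted lines mark 1.5-fold. The main Pik3r1 row lies at 2.20 and Insr at 1.72, and the main Akt2 row lies below 1 while its second row lies above.

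Akt1 and Akt2 differed in opposite directions. Akt1, the widely expressed form (chromosome 12, 112653821 to 112674276, minus strand), had 36.9 FPKM in HFD control and 47.1 FPKM in SML, a ratio of 1.29 (1.19 to 1.40) from 1227 and 1162 fragments. Akt2, the form known for insulin-stimulated glucose uptake in fat and muscle (chromosome 7, 27591560 to 27639453, plus strand), had 271 FPKM in HFD control and 214 FPKM in SML. Its ratio was 0.791 (0.766 to 0.817) from 9877 and 5753 fragments. Both intervals left out 1, and neither gene passed the size rule. Akt2 was 7.34 times as abundant as Akt1 in HFD control and 4.54 times in SML. Akt1 thus held 12.0% of the summed FPKM of this pair in HFD control and 18.1% in SML. The direction for Akt1 and for Akt2 was the same under all 11 alternatives that gave a value.

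The lower level of Akt2 came from its main row, which had 258 FPKM in HFD control and 196 FPKM in SML (ratio 0.761, 0.735 to 0.787). The second row went the other way, with 13.0 and 17.5 FPKM and a ratio of 1.35 (1.19 to 1.53). Its share of the scaled counts of Akt2 was 5.19% in HFD control (4.76 to 5.64%) and 8.83% in SML (8.11 to 9.59%), intervals that do not overlap. The split of fragments between rows of a gene is an estimate by the authors' software, whose error the interval does not include. For Akt1 the second row had 23 and 9 fragments, with 0.70 FPKM in HFD control and a listed 0 in SML, and its ratio of 0.562 (0.216 to 1.19) included 1.

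**Figure D3:**
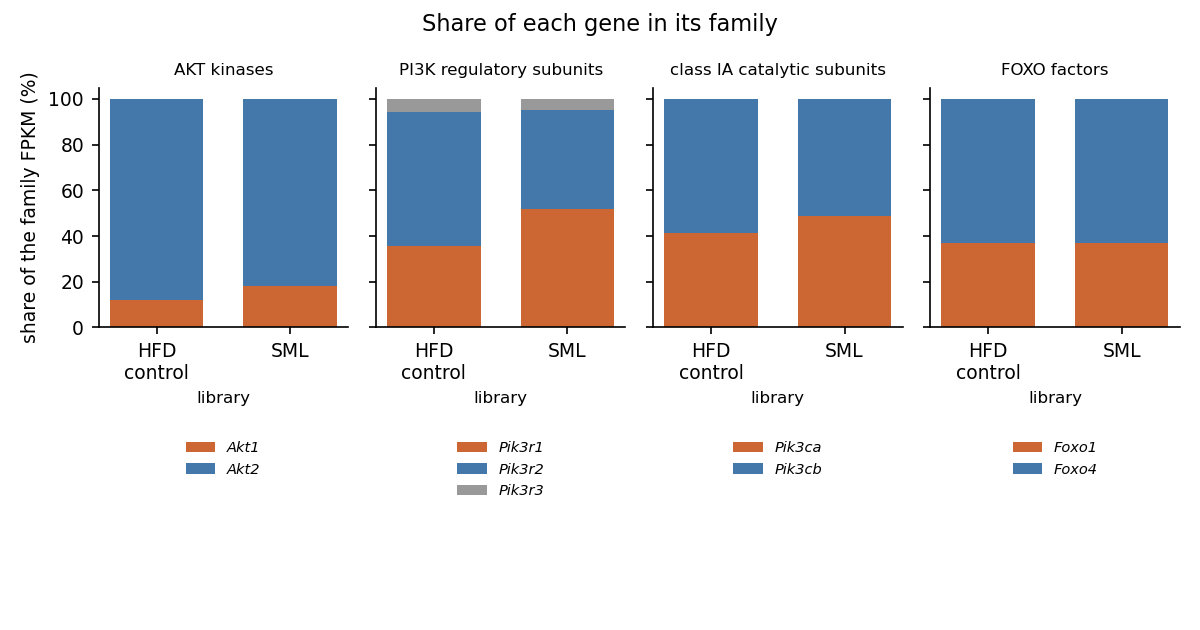
Share of each gene in the summed FPKM of its family, in percent, for the HFD control and SML libraries. The share of Pik3r1 among regulatory subunits is 35.6% against 51.7%, that of Akt1 beside Akt2 12.0% against 18.1%, and that of Foxo1 beside Foxo4 is 37.0% against 37.2%.

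Foxo1, the transcription factor at the end of the pathway (chromosome 3, 52268337 to 52350109, plus strand), had 6.32 FPKM in HFD control and 8.65 FPKM in SML. Its ratio of 1.37 (1.20 to 1.56) from 450 and 453 fragments left out 1 and was under the size rule. Foxo4, a related factor that AKT also phosphorylates, had 10.8 and 14.6 FPKM with a ratio of 1.36 (1.18 to 1.55). Foxo1 made up 37.0% of the FPKM of this pair in HFD control and 37.2% in SML.

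Other genes of the pathway were grouped by role, as 101 genes of which 77 were kept. Of these 2 were higher and 5 were lower by the size rule, beside 5.45% and 5.74% of all genes kept, and the median difference was 0.04. Counted on both sides of 0, 42 of the 77 had a difference above 0, beside 6 of the 7 genes described above and 49.9% of all genes kept. None of 13 adaptors and receptor inhibitors passed the rule (0 higher, 0 lower, median 0.01), with Sh2b2, an adaptor of the receptor, at 54.9 and 55.3 FPKM. The same held for 7 further PI3K genes (median -0.05), for 11 kinases beside AKT (median 0.16), led by Sgk1 at 21.9 and 19.5 FPKM, and for Igf2r, the 1 receptor gene kept of 5 listed, at 3.57 and 3.12 FPKM. By scaled counts in place of FPKM, 1 of the 7 PI3K genes was lower and 1 of the 11 kinases was higher. Of all genes 8.29% were lower and 8.95% higher there.

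Among 8 phosphatase and inhibitor genes that counter PI3K or AKT, 0 were higher and 0 were lower (median -0.10). Ppp2ca, a catalytic subunit of a protein phosphatase and the most abundant gene of that list by its mean over both libraries, had 113 and 101 FPKM. Of 15 AKT substrates 2 were higher and 1 was lower (median 0.06). Mdm2, the ubiquitin ligase that restrains p53, had 2.26 and 6.16 FPKM with a ratio of 2.69 (2.06 to 3.52). Pde3b, the phosphodiesterase through which insulin restrains lipolysis, had 15 and 24.8 FPKM with a ratio of 1.65 (1.52 to 1.8). Bad, a cell death regulator that AKT inactivates, was the lower one, with 63.5 and 41.9 FPKM. Eif4ebp1, a translation repressor, was the most abundant of the list at 486 and 499 FPKM. Of Mdm2, Pde3b and Bad, Mdm2 alone was past the rule after removal of the trend on GC and length.

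Genes known as FOXO1 targets from other work had a median difference of 0.06, with 0 of 15 higher and 2 lower. Bcl6, a transcriptional repressor, had 14.8 FPKM in HFD control and 3.64 FPKM in SML, 4.08-fold lower (3.33 to 5.05). Gadd45a, a stress response gene, had 2.53 and 1.08 FPKM, 2.34-fold lower on 35 and 11 fragments (1.16 to 5.11). Pnpla2, the triglyceride lipase and most abundant of the list, had 1893 and 1976 FPKM. Of 7 insulin-responsive metabolic genes 0 were higher and 2 were lower (median -0.19). These were Acly (237 and 125 FPKM) and Fasn (821 and 456 FPKM), which supply acetyl-CoA for fatty acid synthesis and build the fatty acids.

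For the FOXO1 targets the count of 2 lower became 5 without the filter on low values. The share of all genes that were lower rose as well, from 5.74% to 10.4% of 10761 genes. Transcripts listed at 0 FPKM beside a scaled count above 0 numbered 1443 in SML and 274 in HFD control. Their part in this rise was not tested. The added genes were Trim63, Fbxo32 and Sesn3, all under a mean of 1 FPKM. Trim63, a ubiquitin ligase of muscle, had 1.42 and 0.06 FPKM on 32 fragments and 1, a ratio of 0.0427 (0.00104 to 0.254). Fbxo32, another ubiquitin ligase known from muscle, had 1.06 FPKM in HFD control and was listed at 0 in SML, with 95 and 47 fragments in the count column (ratio 0.672, 0.463 to 0.963). Sesn3, a stress-induced regulator of mTOR complexes, had 0.65 FPKM in HFD control and was also listed at 0 in SML, with 17 and 7 fragments and a ratio interval that included 1 (0.196 to 1.42). Skeletal muscle fibre markers were lower in SML as well (16 of 16), and their part in the values of Trim63 and Fbxo32 was not tested.

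**Figure D4:**
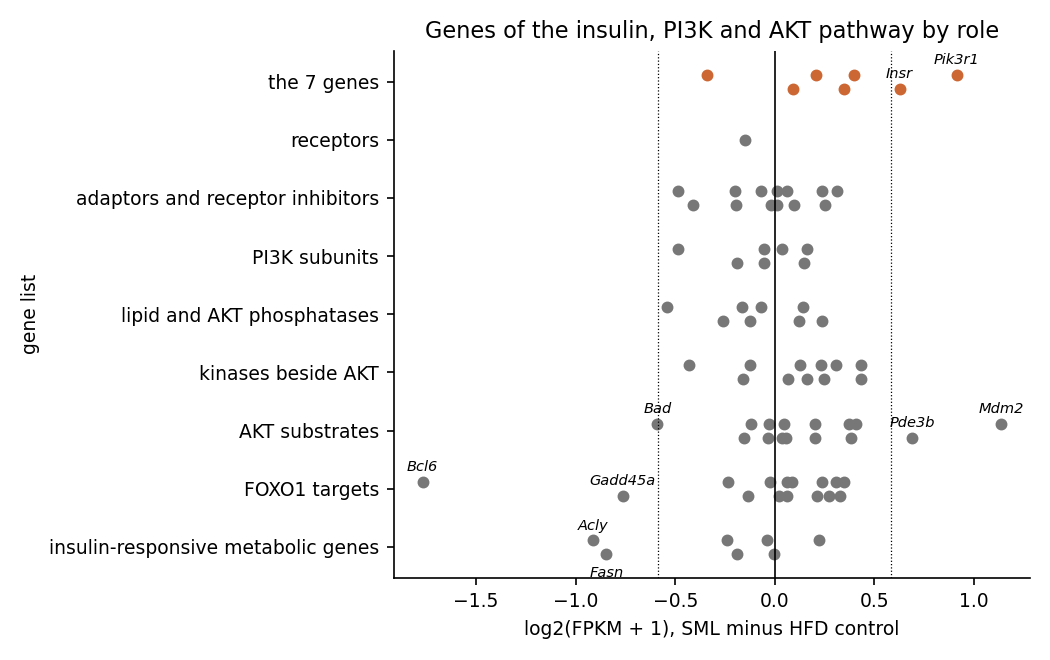
Difference in log2(FPKM + 1), SML minus HFD control, for each kept gene, with 1 point per gene; the top line (orange) holds the 7 genes and the lines below the other pathway genes by role, dotted lines mark 1.5-fold, and genes past them are named. Pik3r1 and Insr lie past the upper line, beside Pde3b and Mdm2 from the other lists.

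Markers of other cell types moved between the libraries as well. All 16 skeletal muscle fibre markers were lower in SML, with a median difference of -3.64 and a summed level of 3958 FPKM in HFD control and 261 FPKM in SML. Of 10 macrophage markers 6 were lower and 1 was higher (470 and 291 FPKM summed), of 9 endothelial markers 3 were lower and 0 higher (213 and 128 FPKM), and of 4 erythroid markers 4 were lower (1974 and 1012 FPKM). None of these markers was at 0 in either library. Brown adipocyte markers were present in both (67653 and 56228 FPKM summed), with Ucp1 at 8702 and 7955 FPKM. The list also held genes of fat cells in general, among them Fabp4, which gave 30001 and 26726 FPKM of these sums. Of 12 kept 2 were higher (Dio2 and Zic1) and 0 lower, and 7 had a difference above 0. Cox8b, at 22044 and 14824 FPKM, had a difference of -0.57, just short of the rule. The marker left out by the filter, Prdm16, a transcriptional regulator of brown fat identity, was lower in SML, with 1.42 and 0.41 FPKM on 155 and 33 fragments, 3.44-fold lower (2.36 to 5.20). The part of these cell types in the differences of Insr, Pik3r1, Akt2 and the other genes was not tested, and in bulk tissue fewer cells of a type and less RNA per cell cannot be told apart. With the muscle markers left out of the totals the differences were 0.69 for Insr, 0.99 for Pik3r1 and -0.26 for Akt2, and over all genes 744 were higher and 439 lower by the size rule in place of 538 and 567. That scaling moved the median of all genes to 0.07.

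Difference and base composition were related across the genes kept (Spearman rho -0.32 with GC content and 0.17 with transcript length, over 9524 genes, which are not independent replicates and share the 2 libraries). The 7 genes had long transcripts, with a median of 8665 bases against 3084 over all genes with a value, and a median GC content of 48.5% against 50.3%. Over the 7 genes alone rho was -0.32 with GC content and 0.18 with transcript length, from 7 values only. Within the set Pik3r1 (44.9% GC) and Insr (46.8%) were lower in GC than Akt2 (55.2%). Pik3ca had the lowest GC content (41.2%) and a difference of 0.09, which became -0.19 once the trend was removed. Akt1 had the highest (59.7%) and a difference of 0.35, which became 0.42. The part of GC content and length in these differences was not tested beyond this correction.

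**Figure D5:**
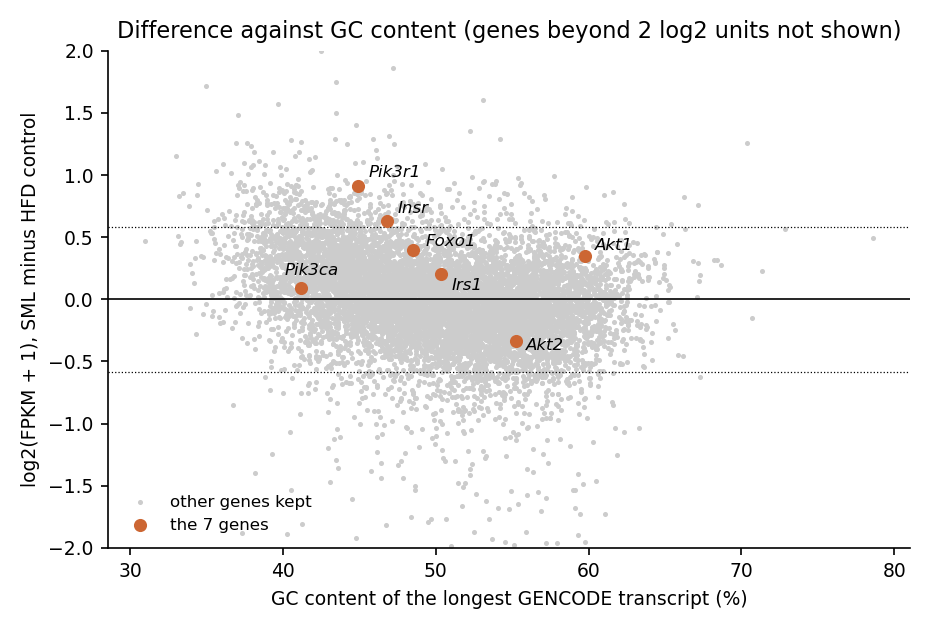
Difference in log2(FPKM + 1), SML minus HFD control, against the GC content of the longest annotated transcript, for all kept genes with a value (grey) and the 7 genes (orange); dotted lines mark 1.5-fold and genes beyond 2 log2 units are not drawn. Pik3r1 and Insr lie above the upper line, and Akt1 lies above 0 at the GC-rich side.

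The genes with levels nearest to those of Insr in both libraries, by distance on the log2(FPKM + 1) scale, were Pla2g2e (3.04 and 5.22 FPKM, distance 0.0036), Zfp869 and Cbx1. For Pik3r1 they were Acbd5 (6.21 and 12.6 FPKM, distance 0.018), Pcmtd1 and Usp16. A likeness over 2 libraries rests on 2 values per gene. Some loci overlap other annotated genes on the opposite strand (GENCODE, GRCm38), namely Gm16180 at Insr, Gm9747 at Irs1 and Gm20402 at Foxo1. The sources used here do not say whether fragments were counted by strand, so reads from these partners cannot be told apart from those of the 3 genes. Others lie on the same strand, namely Gm36638 at Pik3r1, Gm37123 at Pik3ca, Mir6939 at Akt1 and Gm38034 at Foxo1, where strand could not separate the reads either.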

How the data were processed

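Poly(A) RNA of 2 brown fat libraries was read from 1 table, in which the authors deposited FPKM and a scaled count signal per transcript. CASAVA 1.8, Cufflinks and build mm10 are named per the submitters' processing notes, which as used here name no aligner, annotation or filter. The deposited count signal is not raw: low values move in steps of 0.6375 (HFD control) and 0.866 (SML), and 90.7% of 536 and 90.8% of 780 low values were whole steps within 0.1. Dividing by the step gave 11995913 and 8502352 estimated fragments.

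Transcripts were summed by symbol. Differences are log2(FPKM + 1), SML minus HFD control, which understates low genes. Ratios are of scaled counts, with exact conditional binomial intervals (95%, SciPy 1.17.1), and levels carry exact Poisson intervals. The GC and length trend was removed by robust cubic regression (statsmodels 0.14.6). In 1443 SML and 274 HFD control transcripts FPKM was listed at 0 beside a scaled count above 0. Rows whose names had become dates (30) were left out. Implied lengths were scaled on 423 genes with 1 annotated transcript. Procedures were tested on simulated data.

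The members and lists were chosen with earlier results of these data known. Named genes were the members, up to 2 per list past the rule in each direction, the most abundant of each list and 3 nearest genes for Insr and Pik3r1. Irs3, Foxo4, Trim63, Fbxo32, Sesn3, Prdm16, Pik3r3, Pik3cb, Ucp1, Dio2, Zic1, Cox8b and Fabp4 were named after their values were seen. Some pathway genes are not reported here and were left out of the list counts.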

Additional observations from a re-analysis of the deposited data

How the results depend on the processing

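The count of 2 higher genes (Pik3r1 and Insr) became 1 with the GC and length trend removed, 1 at a mean FPKM of at least 5, where fewer genes were tested, and 0 under the 2-fold rule. Of all genes 3.59%, 5.19% and 0.669% were higher in these settings. Counts of 2 higher and 5 lower among the other pathway genes became 4 higher at a pseudocount of 0.1, with the highest transcript per symbol and with the scaled count column. Of all genes 8.58%, 7.24% and 8.95% were higher there, against 5.45% in the main setting. The lower counts in these settings were 6, 7 and 5, beside 8.42%, 7.05% and 8.29% of all genes. The pathway counts became 1 higher and 4 lower without the trend on GC and length (3.59% and 5.28% of all genes). At a mean FPKM of at least 5 they were also 1 higher and 4 lower (5.19% and 4.96%). They became 8 lower without a filter on low values (10.4% of all genes), and 1 higher and 1 lower under the 2-fold rule (0.669% and 1.97%). Except for the smaller set of genes under the filter of 5 FPKM and the stricter fold, the cause was not tested. The second row of Akt1 and of Pik3r1, at 0% of the SML FPKM as listed, held 0.816% and 5.91% of the gene by the count column. The difference of Pik3r1 stayed between 0.77 and 1.08 over 11 alternatives and was past the rule in all of them. That of Insr ran from 0.53 to 0.78 and was past the rule in 9 of 10. Akt2 ran from -0.39 to -0.25, Akt1 from 0.35 to 0.42, Foxo1 from 0.35 to 0.47 and Irs1 from 0.20 to 0.33. Pik3ca alone changed sign, in 1 of 10, to -0.19 with the trend on GC and length removed. Among all genes 571 were higher and 1115 lower without a filter on low values. That setting took FPKM as listed, also for the 1443 SML and 274 HFD control transcripts at 0 beside a scaled count above 0. The part of these listed zeros in the counts was not tested. No paired analysis was possible because each group had 1 library, and no replicate could be left out. Depth limits Irs1 and Pik3ca most, with 156 to 200 fragments per library.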
